A study of Homo sapiens with 9 samples.

Results

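The anti-apoptotic BCL2 family and inhibitor of apoptosis (IAP) genes examined here are BCL2, BCL2L1, BCL2L2, MCL1, BCL2A1, XIAP, BIRC2 and BIRC3. They were found as all probes that the array's annotation names with 1 of these 8 symbols, which gave 11 of the 22177 probes and 7 of the 8 genes. No probe was named with BIRC3, so it has no value here. The arrays hold 16577 genes with a symbol in all.

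Total RNA was profiled on 9 Illumina bead arrays, 1 for each of 3 human leukaemia lines under each of 3 treatments, to compare cells given an inhibitor of histone deacetylases with untreated cells. The groups are SAHA at 5 µM for 6 h, MS-275 at 5 µM for 6 h, and untreated cells at 6 h, each with NB4, K562 and U937, so n = 3 lines per group. Both inhibitors were dissolved in DMSO, and the labels do not state whether untreated cells received the solvent, so its effect and that of an inhibitor cannot be told apart. The replicates of a treatment are therefore 3 different lines and not repeat cultures of 1 line.

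SAHA, or vorinostat, is a hydroxamic acid that inhibits zinc-dependent deacetylases broadly. MS-275, or entinostat, is a benzamide that is more selective for class I enzymes. NB4 is a promyelocytic line, U937 is a monocytic line from a histiocytic lymphoma, and K562 came from chronic myeloid leukaemia in blast crisis and has erythroid features, although the labels group all 3 lines as acute myeloid leukaemia. Each line is grown from 1 patient's cells, so a difference between lines is not one between types of leukaemia.

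Cells die by the mitochondrial route of apoptosis when BAX and BAK1 open the outer membrane of the mitochondrion. BCL2, BCL-XL (from BCL2L1), BCL-W (from BCL2L2), MCL1 and BFL1 (from BCL2A1) hold these effectors and the BH3-only proteins that activate them. MCL1 is short-lived as RNA and protein and is needed by many myeloid leukaemia cells. The IAP proteins act later or elsewhere: XIAP binds and blocks caspases, while cIAP1 (from BIRC2) and cIAP2 (from BIRC3) are ubiquitin ligases that act on RIPK1 and on the kinase of the alternative NF-kappaB pathway. BCL2L1 and MCL1 are each spliced into a long form that protects cells and a short form that promotes death.

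Promoter windows are shown for BCL2L1, which fell with SAHA, and for BCL2A1, which was detected in U937 alone. Each is a RefSeq window (build GRCh38.p14, 250 bases upstream of an annotated start), shown with its searched motifs. The promoter set used held windows for 6 of the 8 members. It held none for BCL2L2 or for MCL1, of which a probe rose with SAHA. Capitals mark matches of the searched letters on either strand, and each window is written 5′ to 3′ on the gene's own strand. The BCL2L1 window is chr20:31723964-31724213 on the minus strand, the outer of 2 that RefSeq gives for this gene, and the BCL2A1 window is chr15:79971197-79971446 on the minus strand.
BCL2L1: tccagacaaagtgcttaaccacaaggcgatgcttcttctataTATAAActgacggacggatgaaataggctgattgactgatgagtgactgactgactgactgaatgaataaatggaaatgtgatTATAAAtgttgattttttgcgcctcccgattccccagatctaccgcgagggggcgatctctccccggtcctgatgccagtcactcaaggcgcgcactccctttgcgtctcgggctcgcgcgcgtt
BCL2A1: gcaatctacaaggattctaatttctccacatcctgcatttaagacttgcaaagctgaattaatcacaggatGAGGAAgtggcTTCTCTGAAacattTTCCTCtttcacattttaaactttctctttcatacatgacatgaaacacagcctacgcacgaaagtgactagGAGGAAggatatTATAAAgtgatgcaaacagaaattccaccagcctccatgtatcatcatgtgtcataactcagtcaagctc
The BCL2L1 window held TATAAA, the letters of the TATA box, at −208 and −125, counted at the first base of the match from the start, and no match to the other searched letters. The other BCL2L1 window, chr20:31722869-31723118, is not printed: it held 0 matches to any searched motif, and guanine and cytosine made up 60.4% of it. In the BCL2A1 window, GAGGAA (letters of the myeloid factor PU.1) was found at −179, −154 and −82, TTCNNNGAA (STAT) at −168 and TATAAA at −70. No 2 of these matches overlap. Of 35116 RefSeq windows of this length, 10.7% hold TATAAA, 23.6% hold GAGGAA and 6.57% hold TTCNNNGAA. The other motifs searched on both strands were those of NF-kappaB, which 5.07% of windows hold, those of GATA factors (AGATAA in 9.17% of windows and TGATAA in 6.66%), the E-box (CACGTG, 6.34%) and the GC box (GGGCGG, 42.6%). Guanine and cytosine made up 50.0% of the printed BCL2L1 window and 38.8% of the BCL2A1 window, against a median of 58.0% over all windows. A match is a run of letters and no evidence of binding.

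Arrays and lines were checked before the members were compared. Probes called detected (detection p-value under 0.05) numbered 11826 to 12705 per array, and both treated arrays of each line had more than its untreated array. The erythroid genes HBZ and ALAS2 were detected on the 3 K562 arrays alone, and the granule gene MPO on the 3 NB4 arrays alone. The other tested erythroid markers were not confined to K562. HBG2 was also detected on 3 U937 arrays, HBG1 on 2 and HBE1 on 1, and EPOR was detected on all 9 arrays. The summed level of the erythroid marker list was 110210 to 121200 in K562, against 204 to 337 in NB4 and 273 to 436 in U937, in normalized intensity. The monocytic list summed to 20251 to 27947 in U937, against 4712 to 8668 in NB4 and 3825 to 5366 in K562. That sum is mostly LYZ and CST3, with mean log2 levels of 13.17 and 13.60 in U937. CD4 also differed, at 6.74 in NB4 and 8.95 in U937. CSF1R (8.60 and 9.13) and ITGAM (7.32 and 7.87) differed less between those lines, and CD14 was detected on 2 of 3 U937 arrays. Granule genes fixed as NB4 markers summed to 40634 to 44273 in NB4 but to 69668 to 72875 in U937, so that list does not separate these lines. The T-cell genes CD3D and CD3E and the B-cell gene MS4A1 were detected on 0 of 9 arrays. On the same list of other cell types, the B-cell gene CD79A and EPCAM were each detected on 6 arrays. COL1A1 was detected on 5 arrays and KRT19 on the 3 K562 arrays alone. The monocytic gene ITGAM rose with MS-275 by a log2 change of 1.92 (limma adjusted p = 0.0212). PECAM1, listed under other cell types but detected on all 9 arrays, rose with MS-275 by 1.10 (limma adjusted p = 0.0279). Their part in the results was not tested.

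SAHA lowered both BCL2L1 probes and raised 1 of 2 MCL1 probes, while no other tested probe of the group passed the test with SAHA and none passed with MS-275. Levels are background-corrected, quantile-normalized log2 intensities, so a difference of 1 is a doubling, and a probe is called at an adjusted p under 0.05. Of the 10 member probes tested, 1 was higher with SAHA and 2 were lower, against 11.3% and 11.5% of all 13836 tested probes, so these are shares near the background. With MS-275 0 of 10 were higher and 0 were lower, against 3.99% and 7.19% of all probes. At an unadjusted p under 0.05, 5 of the 10 would pass with SAHA, against 4989 of all 13836 tested probes. With MS-275 2 of the 10 would pass, against 4134 of 13836. The median log2 change of the 10 was −0.22 with SAHA, against −0.02 over all tested probes, and −0.11 with MS-275, against −0.03. Both comparisons use the same 3 untreated arrays.

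**Figure D1:**
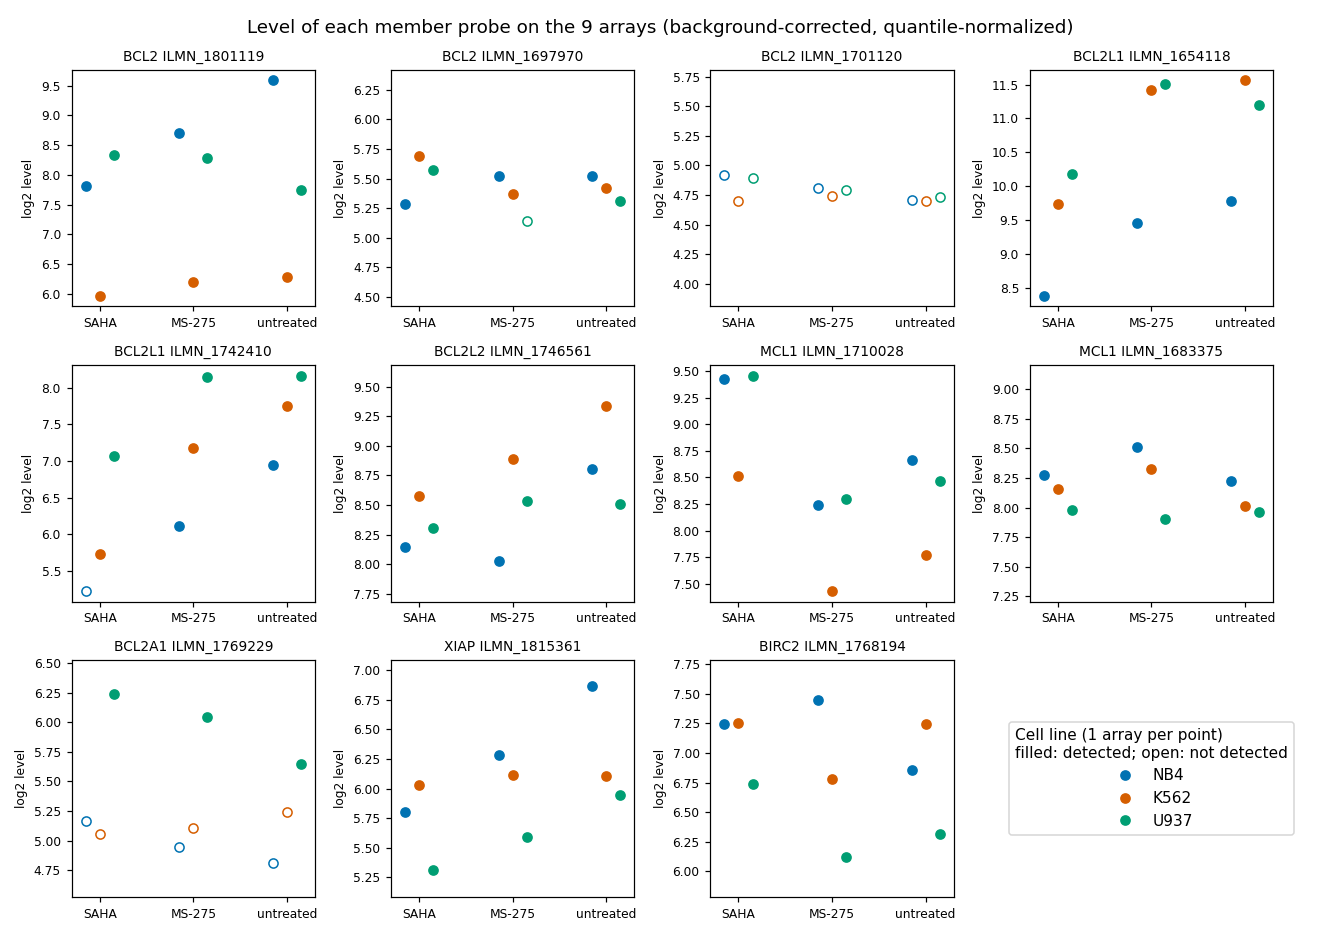
Log2 level (vertical axis, its range differing by panel) of the 11 member probes on the 9 arrays, by treatment from SAHA through MS-275 to untreated, with 1 point per array, coloured by line and open where the probe was not detected. Both BCL2L1 probes are lowest with SAHA in every line, MCL1 ILMN_1710028 is highest with SAHA in every line, and BCL2A1 is detected in U937 alone.

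BCL2L1 was lower with SAHA in all 3 lines on both of its probes. The probe ILMN_1654118, which the annotation pairs with the record of the short BCL-XS transcript, read 8.38, 9.74 and 10.18 in SAHA-treated NB4, K562 and U937 cells, 9.45, 11.42 and 11.51 in MS-275-treated cells, and 9.78, 11.56 and 11.19 in untreated cells (log2 level). Each SAHA array was below both other arrays of its line, although the groups overlapped across lines because NB4 lay lower throughout. The fall with SAHA was 2.66-fold (log2 change −1.41 ± 0.19, SE, n = 3 lines; limma adjusted p = 0.00309), with a 95% confidence interval of −1.85 to −0.98. With MS-275 the log2 change was −0.05 ± 0.19 (adjusted p = 0.878), with an interval of −0.49 to 0.38. By line the SAHA change was −1.40 in NB4, −1.82 in K562 and −1.01 in U937. The RNA came from whole cultures, where fewer cells that express a gene and less of its RNA per cell cannot be told apart.

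The other BCL2L1 probe, ILMN_1742410, is paired with the record of the long BCL-XL transcript. It read 5.23, 5.74 and 7.07 in SAHA-treated NB4, K562 and U937 cells, 6.12, 7.17 and 8.15 in MS-275-treated cells, and 6.95, 7.75 and 8.16 in untreated cells. SAHA-treated NB4 held the lowest reading, the 1 array where this probe was not detected (detection p-value 0.055). SAHA lowered it 3.05-fold (log2 change −1.61 ± 0.20; limma adjusted p = 0.00271), with an interval of −2.08 to −1.13. The MS-275 change of −0.48 ± 0.20 missed the threshold after adjustment (limma adjusted p = 0.165). It was −0.83 in NB4, −0.58 in K562 and −0.02 in U937.

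Both BCL2L1 probes moved together across treatments. After removal of each line's mean they correlated at r = 0.967 over the 9 arrays, as a description. The change of ILMN_1742410 minus that of ILMN_1654118 averaged −0.20 ± 0.12 with SAHA and −0.43 ± 0.09 with MS-275 (log2, SD, n = 3 lines). It was below 0 in 3 of 3 lines with each inhibitor. Without background correction the mean SAHA change was −0.95 on ILMN_1742410 and −1.31 on ILMN_1654118, the opposite order. The MS-275 changes kept their order, at −0.29 and −0.04. The sign of the SAHA difference thus depended on the background correction. This difference between probes was not tested, and the arrays give no sequence by which the transcripts that each probe detects could be settled. The genes whose level followed ILMN_1654118 most closely after line means were removed were HPS1 (r = 0.992) and PEF1 (r = 0.991), among 8345 probes detected on all 9 arrays, of which 304 had r over 0.9.

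MCL1 passed the test on 1 of its 2 probes. On ILMN_1710028, paired with the record of the long transcript, SAHA-treated NB4, K562 and U937 read 9.43, 8.51 and 9.46, MS-275-treated cells 8.24, 7.43 and 8.30, and untreated cells 8.67, 7.77 and 8.46 (log2 level). In each line the order was SAHA highest, untreated in the middle and MS-275 lowest. SAHA raised it 1.78-fold (log2 change 0.83 ± 0.12; limma adjusted p = 0.00412), with an interval of 0.55 to 1.12. The increase was 0.76 in NB4, 0.74 in K562 and 0.99 in U937, and without the U937 arrays the adjusted p was 0.0529. The MS-275 change was −0.31 ± 0.12 (limma adjusted p = 0.138), and it was −0.54 (adjusted p = 0.0362) when arrays were scaled to equal medians in place of quantiles, a scaling that moves the median change of all probes with MS-275 to −0.14.

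On ILMN_1683375, paired with the record of the short MCL1 transcript, readings stayed close together. It read 8.28, 8.15 and 7.98 in SAHA-treated NB4, K562 and U937, 8.51, 8.33 and 7.90 in MS-275-treated cells, and 8.23, 8.01 and 7.96 in untreated cells. The log2 change was 0.07 ± 0.13 with SAHA (limma adjusted p = 0.752) and 0.18 ± 0.13 with MS-275 (adjusted p = 0.393), and both turned below 0, to −0.082 and −0.047, with arrays scaled to equal medians. The SAHA change of ILMN_1710028 minus that of ILMN_1683375 was 0.71 in NB4, 0.60 in K562 and 0.98 in U937, and the same difference for MS-275 averaged −0.49 ± 0.33 (SD, n = 3 lines). It was not tested. After removal of line means the MCL1 probes correlated at r = −0.31 over the 9 arrays, and MCL1 ILMN_1710028 and BCL2L1 ILMN_1654118 at r = −0.90. TM2D2 (r = 0.997) and CHMP1B (r = 0.996) followed MCL1 ILMN_1710028 most closely among 8344 probes, of which 553 had r over 0.9.

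BCL2 itself went different ways in the lines. Its bright probe ILMN_1801119, paired with the record of the alpha transcript that encodes the membrane-anchored protein, read 7.82, 5.97 and 8.33 in SAHA-treated NB4, K562 and U937, 8.70, 6.20 and 8.29 in MS-275-treated cells, and 9.59, 6.29 and 7.74 in untreated cells. In NB4 both treated arrays were below the untreated array, in U937 both were above it, and in K562 the 3 arrays lay within 0.32. The SAHA change was −1.77 in NB4, −0.32 in K562 and 0.59 in U937, and the MS-275 change was −0.89, −0.09 and 0.55 in the same order of lines. Over the 3 lines neither inhibitor's change passed the test (−0.50 ± 0.38 with SAHA, limma adjusted p = 0.395, and −0.14 ± 0.38 with MS-275, adjusted p = 0.829). Without the NB4 arrays both means were above 0, at 0.14 with SAHA and 0.23 with MS-275.

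The other BCL2 probes, both paired with the record of the beta transcript, were dim. ILMN_1697970 ranged from 5.15 to 5.69 and was detected on 8 of 9 arrays, all but MS-275-treated U937, with log2 changes of 0.10 ± 0.16 with SAHA (limma adjusted p = 0.718) and −0.07 ± 0.16 with MS-275 (adjusted p = 0.793). ILMN_1701120 ranged from 4.70 to 4.92, was detected on 0 of 9 arrays and was not tested. ILMN_1801119 and ILMN_1697970 disagreed on the SAHA change in NB4, at −1.77 and −0.24.

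BCL2L2, which encodes BCL-W, was lower with SAHA in every line without passing the test. Its probe ILMN_1746561 read 8.15, 8.58 and 8.30 in SAHA-treated NB4, K562 and U937, 8.03, 8.89 and 8.54 in MS-275-treated cells, and 8.80, 9.34 and 8.51 in untreated cells. U937 varied least, within 0.24. The log2 change was −0.54 ± 0.17 with SAHA (limma adjusted p = 0.0646) and −0.40 ± 0.17 with MS-275 (adjusted p = 0.177). The SAHA call was gained when arrays were scaled to equal medians (adjusted p = 0.0343) and when testing was limited to probes detected on all 9 arrays (adjusted p = 0.0408). With line means removed BCL2L2 correlated over the 9 arrays at r = 0.85 with BCL2L1 ILMN_1742410 and at r = 0.71 with the brighter ILMN_1654118, as a description.

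BCL2A1, an NF-kappaB target gene of myeloid cells, was detected on the 3 U937 arrays and on 0 of the 6 others. In U937 it read 6.24 with SAHA, 6.05 with MS-275 and 5.64 untreated, a difference from untreated cells of 0.60 and 0.40. In NB4 and K562 the readings, not above background, were 5.17 and 5.05 with SAHA, 4.94 and 5.11 with MS-275, and 4.81 and 5.24 untreated. Over the 3 lines the log2 change was 0.25 ± 0.17 with SAHA (limma adjusted p = 0.326) and 0.13 ± 0.17 with MS-275 (adjusted p = 0.625), values that rest on undetected arrays in NB4 and K562. The probe passed the detection filter through U937 alone.

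Among the IAP genes, XIAP, the caspase inhibitor, was lower with SAHA in all 3 lines but missed the threshold. ILMN_1815361 read 5.80, 6.03 and 5.31 in SAHA-treated NB4, K562 and U937, 6.29, 6.11 and 5.59 in MS-275-treated cells, and 6.86, 6.10 and 5.95 in untreated cells. In NB4 and U937 the order was SAHA lowest and untreated highest, and in K562 the 3 arrays lay within 0.08. The log2 change was −0.59 ± 0.19 with SAHA (limma adjusted p = 0.0601) and −0.31 ± 0.19 with MS-275 (adjusted p = 0.307). The SAHA call was gained without the K562 arrays (adjusted p = 0.0366) and among probes detected on all 9 arrays (adjusted p = 0.0373).

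BIRC2, which encodes cIAP1, passed the test with neither inhibitor, and its direction was mixed between lines with MS-275. ILMN_1768194 read 7.24, 7.25 and 6.74 in SAHA-treated NB4, K562 and U937, 7.45, 6.78 and 6.12 in MS-275-treated cells, and 6.86, 7.25 and 6.32 in untreated cells. SAHA-treated cells were at or above untreated cells in every line, with K562 reading the same to 2 decimals, and MS-275-treated cells were above untreated cells in NB4 and below them in K562 and U937. The log2 change was 0.27 ± 0.21 with SAHA (limma adjusted p = 0.416) and −0.02 ± 0.21 with MS-275 (adjusted p = 0.952).

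Direction was also counted by line, without a test. With SAHA 3 of the 10 tested probes were higher in all 3 lines and 4 were lower in all 3, against 27.5% and 29.1% of all tested probes. With MS-275 0 were higher and 3 were lower in all 3 lines, against 23.5% and 30.1%. The SAHA counts lie near those shares and are no result about the members.

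**Figure D2:**
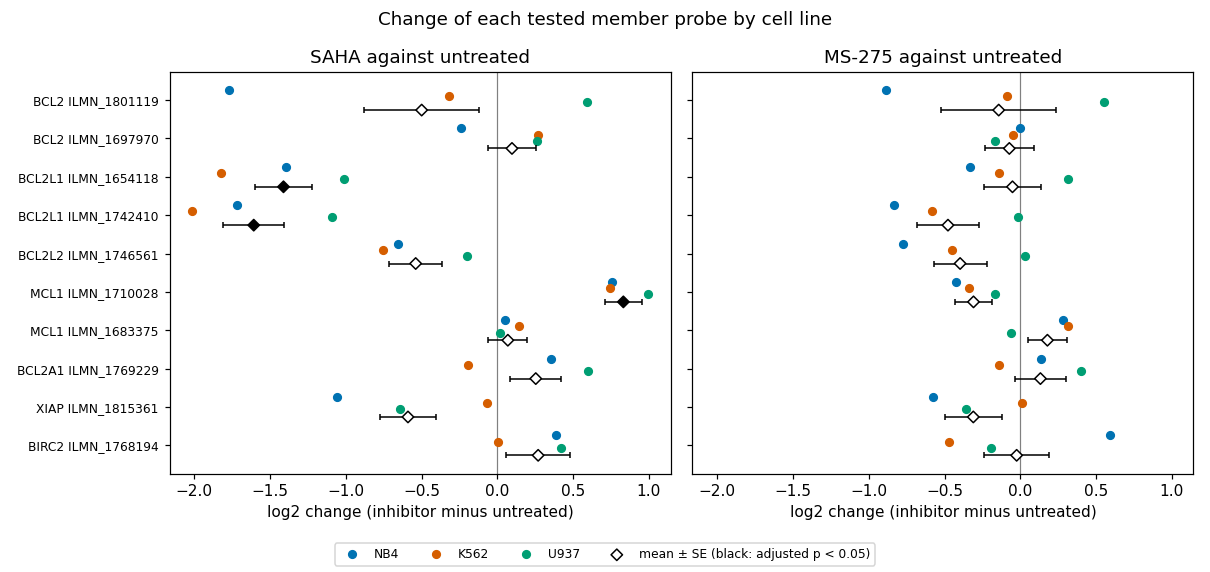
Log2 change (horizontal axis, inhibitor minus untreated) of the 10 tested member probes with SAHA (left) and MS-275 (right), with 1 coloured point per line and a diamond for the mean with its SE from limma, black where the adjusted p is under 0.05. With SAHA both BCL2L1 probes lie between −2.01 and −1.01 in every line and MCL1 ILMN_1710028 between 0.74 and 0.99, while BCL2 ILMN_1801119 runs from −1.77 in NB4 to 0.59 in U937.

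SAHA and MS-275 were compared directly as 1 pair of compounds at the same dose and time, over the same 3 lines and with p-values adjusted over all 13836 probes. Of the 10 member probes, 1 was higher and 2 were lower with SAHA than with MS-275, against 13.1% and 9.97% of all tested probes. Cells given the hydroxamic acid had 2.57-fold less BCL2L1 RNA on ILMN_1654118 than cells given the benzamide (log2 difference −1.36 ± 0.19, limma adjusted p = 0.0041). On ILMN_1742410 they had 2.19-fold less (−1.13 ± 0.20, adjusted p = 0.00901), a call that was lost without NB4 (adjusted p = 0.0509) and without K562 (adjusted p = 0.0519). MCL1 ILMN_1710028 was 2.20-fold higher with SAHA (1.14 ± 0.12, adjusted p = 0.00212), in 3 of 3 lines. Without the cell line in the model all 3 calls were lost (adjusted p = 0.637 and 0.673 for BCL2L1 ILMN_1654118 and ILMN_1742410, and 0.302 for MCL1).

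The other 7 probes did not differ past the threshold, which does not show that the compounds act alike on them. Their 95% intervals of the log2 difference, SAHA minus MS-275, ran from −1.24 to 0.53 for BCL2 ILMN_1801119, from −0.21 to 0.54 for BCL2 ILMN_1697970 and from −0.55 to 0.27 for BCL2L2. They ran from −0.41 to 0.19 for MCL1 ILMN_1683375, from −0.27 to 0.51 for BCL2A1, from −0.72 to 0.16 for XIAP and from −0.21 to 0.79 for BIRC2. The narrowest, that of the short-form MCL1 probe, thus allows a difference of up to 0.41 toward lower levels with SAHA, and the widest, that of BCL2, one of up to 1.24.

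**Figure D3:**
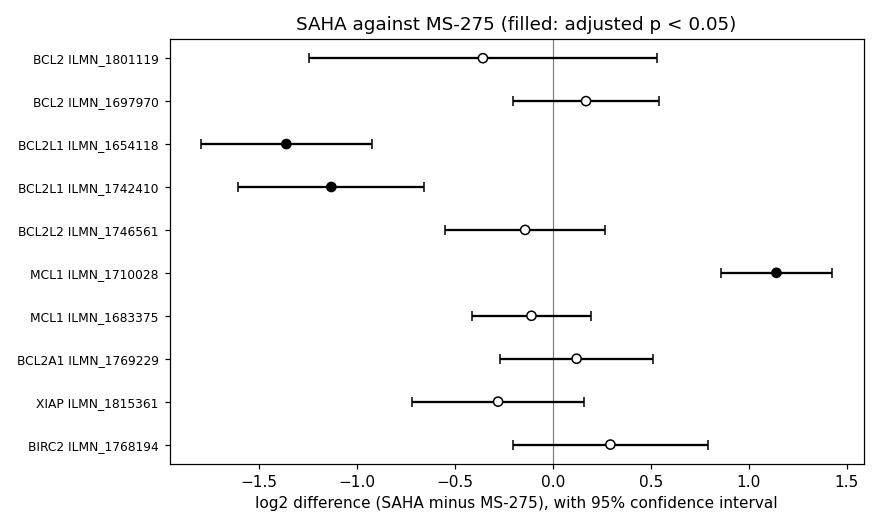
Log2 difference between SAHA and MS-275 (horizontal axis, SAHA minus MS-275) for the 10 tested member probes, as points with 95% confidence intervals over 3 lines, filled where the adjusted p is under 0.05. Both BCL2L1 probes lie at −1.36 and −1.13 and MCL1 ILMN_1710028 at 1.14, with intervals clear of 0, while the other 7 intervals span 0.

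Levels differed between the lines for most members, as for most genes. In the F test over lines, with treatment in the model, 8 of the 10 tested member probes passed, against 68.9% of all tested probes. A line's mean and SD below cover its 3 arrays, which are cultures under different treatments, so the SD includes the response. A pairwise contrast passed for 50.2% of all probes between NB4 and K562, 44.1% between NB4 and U937 and 52.9% between K562 and U937.

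BCL2 was lowest in K562. On ILMN_1801119 NB4 averaged 8.70 ± 0.89, K562 6.15 ± 0.16 and U937 8.12 ± 0.33 (log2 level, SD, n = 3 arrays). NB4 was 5.86-fold above K562 (limma adjusted p = 0.00114) and K562 3.92-fold below U937 (adjusted p = 0.00354). NB4 and U937 did not differ past the threshold (adjusted p = 0.256). In K562 this probe was dim, with raw intensities of 134 to 141 and a detection p-value of 0.0113 on every array. Untreated NB4 and K562 read 9.59 and 6.29, but 9.72 and 7.25 without background correction, so the fold is smaller without it. The limma F test over lines still passed then (adjusted p = 0.00543). The beta-record probe ILMN_1697970 did not pass the F test (adjusted p = 0.668).

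BCL2L1 ran in a different order, lowest in NB4. On ILMN_1654118 NB4 averaged 9.20 ± 0.73, K562 10.90 ± 1.01 and U937 10.96 ± 0.70. NB4 was 3.25-fold below K562 (limma adjusted p = 0.000259) and 3.38-fold below U937 (adjusted p = 0.000306), with K562 and U937 not told apart (adjusted p = 0.824). On ILMN_1742410 all 3 pairwise contrasts passed, with means of 6.10 ± 0.86 in NB4, 6.89 ± 1.04 in K562 and 7.80 ± 0.62 in U937. The K562 arrays (5.74 to 7.75) still overlapped those of NB4 (5.23 to 6.95) and U937 (7.07 to 8.16). The contrasts there were −0.79 for NB4 minus K562 (adjusted p = 0.0141), −1.70 for NB4 minus U937 (adjusted p = 0.000531) and −0.91 for K562 minus U937 (adjusted p = 0.00708).

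MCL1 ILMN_1710028, like BCL2, was lowest in K562, at 7.91 ± 0.55, against 8.78 ± 0.60 in NB4 and 8.74 ± 0.63 in U937. NB4 was 1.83-fold above K562 (limma adjusted p = 0.000815) and K562 1.78-fold below U937 (adjusted p = 0.000914), and NB4 and U937 were not told apart (adjusted p = 0.823). The short-record probe ILMN_1683375 did not pass the F test (adjusted p = 0.0696). BCL2L2 averaged 8.33 ± 0.42 in NB4, 8.94 ± 0.38 in K562 and 8.45 ± 0.13 in U937, with K562 above both other lines (adjusted p = 0.0224 and 0.0491). That F test (adjusted p = 0.0332) was lost with arrays scaled to equal medians (adjusted p = 0.211) and without the arrays of any 1 treatment.

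BCL2A1 averaged 5.98 ± 0.30 in U937, against readings not above background of 4.97 ± 0.18 in NB4 and 5.13 ± 0.10 in K562. Set against the dimmest probes that were detected on those arrays, the U937 level was at least 1.64-fold above NB4 and at least 1.63-fold above K562. The probe was tested only because U937 detected it, so these bounds and its place among the 8 calls are a description. These bounds take a line's mean of, per array, the lowest signal among detected probes or the probe's own, whichever was higher. XIAP averaged 6.32 ± 0.53 in NB4, 6.08 ± 0.04 in K562 and 5.62 ± 0.32 in U937. Only its contrast of NB4 minus U937 passed (0.70, limma adjusted p = 0.0189), and the arrays of these lines overlapped (5.80 to 6.86 and 5.31 to 5.95). BIRC2 was lowest in U937, at 6.39 ± 0.31, against 7.18 ± 0.30 in NB4 (adjusted p = 0.0197) and 7.09 ± 0.27 in K562 (adjusted p = 0.0268).

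Whether an inhibitor's effect differed between lines was tested by an F test of line by treated against untreated, in which the difference between the inhibitors is part of the residual. It called 0 of 10 member probes, and 0 of the 13836 tested probes (0%), with limma after adjustment. At an unadjusted p under 0.05 it gave 0 of the 10 and 202 of all probes. The lowest unadjusted p among members was that of BCL2 ILMN_1801119, at 0.0529 (adjusted p = 1). The test has 3 residual degrees of freedom, and the opposite signs of BCL2 in NB4 and U937 are given as values.

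The wider apoptosis machinery was described from lists of other genes, with the brightest tested probe for each gene. List counts stand beside the shares of all tested probes called, which were 11.3% higher and 11.5% lower with SAHA, and 3.99% higher and 7.19% lower with MS-275. Among 10 tested BH3-only genes, whose products oppose the anti-apoptotic BCL2 proteins, 5 rose and 1 fell with SAHA, against 11.3% and 11.5% of all probes, and the median log2 change was 0.46, against −0.02. BMF, which is linked to the cytoskeleton, rose 4.36-fold (2.12 ± 0.37, limma adjusted p = 0.00778), and BIK, which acts at the endoplasmic reticulum, rose 2.74-fold (adjusted p = 0.00719), each detected on 2 of 3 untreated arrays. BID, the link from death receptors to mitochondria, fell 2.35-fold (adjusted p = 0.00802). With MS-275 1 of 10 rose, BIK, by 2.63-fold (adjusted p = 0.019), while BMF changed by 1.32 (adjusted p = 0.063). The effectors BAX, BAK1 and BOK gave 0 of 3 calls with either inhibitor.

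Downstream of the mitochondrion, 2 of 7 tested caspase and apoptosome genes rose with SAHA and 0 fell, against 11.3% and 11.5% of all probes. APAF1, the scaffold of the apoptosome, rose 3.77-fold (1.91 ± 0.17, limma adjusted p = 0.00147), and CASP9, the caspase it activates and that XIAP blocks, rose 2.72-fold (adjusted p = 0.00497). A second CASP9 probe rose by 0.87 (adjusted p = 0.0191). With MS-275 0 of 7 passed, with values of 0.43 for APAF1 and −0.58 for CASP9, and SAHA was above MS-275 by 1.48 (adjusted p = 0.00247) and 2.02 (adjusted p = 0.00231). Among 6 tested genes of the list set up for antagonists and modulators of IAP proteins 0 passed with SAHA. With MS-275 1 fell, ARMC8, by 1.71-fold (adjusted p = 0.0384), whose other probe changed by −0.43 (adjusted p = 0.118). Whether ARMC8 acts on IAP proteins was not tested.

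Other anti-apoptotic genes gave 1 rise and 1 fall among 10 tested with SAHA, and 0 rises and 1 fall with MS-275. CFLAR, an inhibitor of caspase-8 activation, fell 2.58-fold with SAHA (−1.37 ± 0.28, limma adjusted p = 0.0134) and changed by −0.18 with MS-275 (adjusted p = 0.703). DFFA, which holds a nuclease of apoptosis inactive, rose 1.71-fold with SAHA (adjusted p = 0.0091) on 1 probe, while another gave 0.37 (adjusted p = 0.179). BAG1, a co-chaperone that binds BCL2, fell 2.09-fold with MS-275 (adjusted p = 0.0218). Its probe was detected on 2 of 3 MS-275 arrays and on 3 of 3 untreated arrays.

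Partners of the cIAP proteins in TNF receptor signalling gave 3 rises and 1 fall among 11 tested with SAHA, and 2 rises and 2 falls with MS-275. TRAF3, an adaptor in the complex through which cIAP proteins restrain the alternative NF-kappaB pathway, fell 2.56-fold with SAHA (limma adjusted p = 0.00263) and 1.80-fold with MS-275 (adjusted p = 0.0254). CYLD, a deubiquitinase that opposes NF-kappaB, also passed with SAHA (adjusted p = 0.00514), but its probe was detected on 3 of 3 SAHA arrays and on 1 of 3 untreated arrays, so no fold is given. TNFRSF1B, a TNF receptor, rose 2.19-fold with MS-275 (adjusted p = 0.0432). Among 10 NF-kappaB genes 1 rose and 3 fell with SAHA: NFKB1 fell 3.70-fold (adjusted p = 0.00292), CXCL8 fell 2.88-fold (adjusted p = 0.0166) and NFKB2, the subunit gene of the alternative pathway, rose 3.20-fold (adjusted p = 0.00251). With MS-275 0 of 10 rose and 1 fell.

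Of 6 tested regulators of MCL1 protein, 2 rose with SAHA and 0 passed with MS-275. They were FBXW7, a ubiquitin ligase subunit that targets MCL1 for destruction (1.63-fold, limma adjusted p = 0.027, and 0.71 with adjusted p = 0.0113 on a second probe), and USP9X, a deubiquitinase that stabilizes MCL1 (1.47-fold, adjusted p = 0.0324). Of 11 transcription factors known to act on members, 1 rose and 4 fell with SAHA, against 11.3% and 11.5% of all probes, with a median log2 change of −0.78, against −0.02. With MS-275 0 rose and 2 fell, against 3.99% and 7.19%, with a median of 0.06, against −0.03. MYC fell 7.47-fold with SAHA (adjusted p = 0.00381) and 3.64-fold with MS-275 (adjusted p = 0.0331). MYB, a factor known to act on BCL2, fell 5.56-fold with SAHA (adjusted p = 0.00122) and 1.93-fold with MS-275 (adjusted p = 0.0279). STAT5A, which is known to act on BCL2L1, fell 3.94-fold with SAHA (adjusted p = 0.0033) and changed by −0.29 with MS-275 (adjusted p = 0.496). STAT5B changed by −0.50 with SAHA without passing (limma adjusted p = 0.167). The factor that rose with SAHA was STAT3, 1.69-fold (limma adjusted p = 0.0269). Whether these factors bear on the members' changes was not tested.

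**Figure D4:**
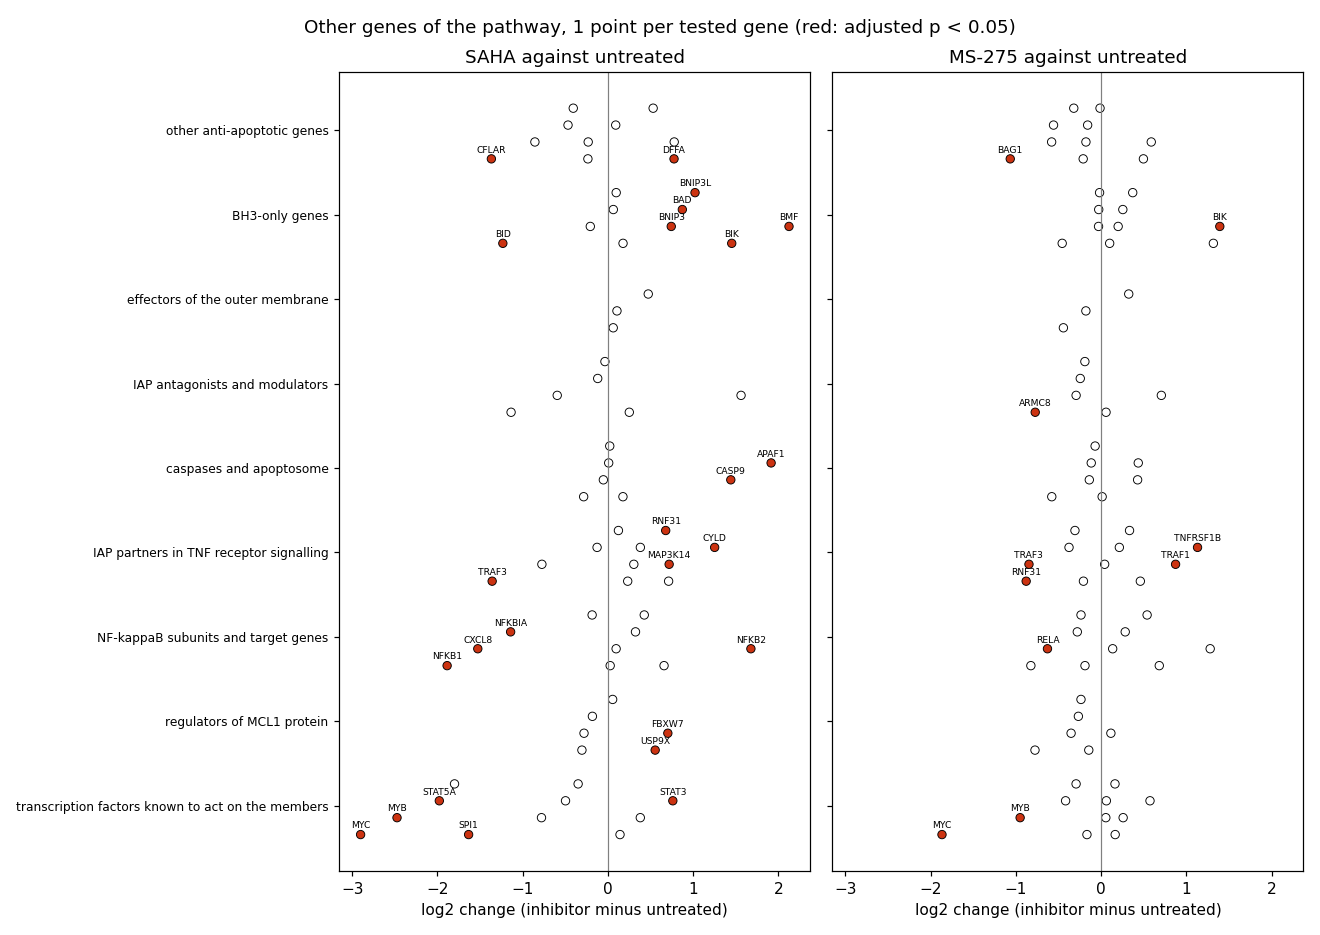
Log2 change (horizontal axis, inhibitor minus untreated, mean over 3 lines) of the tested genes of 9 lists with SAHA (left) and MS-275 (right), 1 point per gene, red and named where the adjusted p is under 0.05. With SAHA 5 of 10 BH3-only genes and 2 of 7 caspase and apoptosome genes are red above 0, and 4 of 11 transcription factors are red below 0.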

How the data were processed

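Total RNA of 3 cell lines under 3 treatments was measured on 9 arrays. The authors deposited probe intensity values that are neither background-subtracted nor normalized, with array medians of 104 to 139, and a detection p-value for each; both descriptions come from the values. A second deposited table holds log2 values, for which the submitters' processing notes name lumi (version not given). They equalled the quantile-normalized log2 of the deposited intensity within 0.0132 over 199593 values and served to name probes, by the ranks of each probe over the 9 arrays. Gene names come from the platform annotation, which gives 1 symbol for 19708 probes, several for 0 and none for 2469. Columns of other samples numbered 0.

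Intensities were corrected with limma's nec function (offset 16), then quantile-normalized and log2-transformed (limma 3.58.1, R 4.3.3). Probes with a detection p-value under 0.05 on at least 3 of 9 arrays were tested, which left 13836 probes (11228 genes). The limma model held treatment and cell line (4 residual degrees of freedom), the line pairing the arrays. Arrays correlated at 0.945 to 0.969 within a line and at 0.745 to 0.893 between lines. Once treatment means were taken out, the correlation was 0.866 to 0.934 within a line and −0.694 to −0.156 between lines. Taking out means over 3 lines by itself pushes the values between lines below 0. Two-sided p-values were adjusted by Benjamini and Hochberg over all tested probes. The median standard error of a change was 0.166 on the log2 scale, and the number of arrays limits the precision. No slide or date is recorded here, so no batch could be tested, and p-values measure the spread of the response between 3 lines. The procedure was tested on simulated data.

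Named genes are all member probes, up to 3 genes per list with the largest change among those past the test with either inhibitor, and the 2 genes most like each member that passed. ITGAM, PECAM1, the line markers and the genes of other cell types are named from the marker lists. STAT3 and STAT5B are named beside STAT5A, outside that rule. The effector list is named in full. The members and lists were chosen with earlier results of these data known, so a list's count is not independent evidence. Alternatives were no background correction, scaling to equal medians, no or a stricter detection filter, 1 probe per gene, no line block, only the arrays compared, and leaving out each line.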

Additional observations from a re-analysis of the deposited data

Results flagged for a closer look

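BCL2 ILMN_1801119 moved in opposite directions in the lines: the mean log2 change over both inhibitors was −1.33 in NB4, −0.20 in K562 and 0.57 in U937, so that NB4 minus U937 was −1.9 and K562 minus U937 was −0.774. Both treated arrays of each line had the sign of its mean. These pairwise differences were not tested singly, and the F test over the 3 lines gave an unadjusted p = 0.0529 and an adjusted p = 1 with limma.

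BCL2A1 ILMN_1769229 had mean changes of 0.24 in NB4, −0.16 in K562 and 0.50 in U937. NB4 minus K562 was 0.41, with the probe detected on 0 arrays of either line, and K562 minus U937 was −0.665, with 0 arrays detected in K562 and 3 in U937. The limma F test gave an unadjusted p = 0.264 and an adjusted p = 1.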

How the results depend on the processing

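Probes called numbered 3155 with SAHA, 1547 with MS-275 and 3191 between SAHA and MS-275. Without the line block they were 98, 2 and 65, and with 1 line left out they ranged over 1085 to 1995, 0 to 265 and 550 to 2100. The MS-275 count without U937 was 0 with limma (2958 at an unadjusted p under 0.05), without NB4 it was 2 and without K562 265. Fits of only the arrays compared gave 819 with MS-275 and 2119 between the inhibitors. Scaling to equal medians gave 2611 with MS-275, of which 16.2% were higher, against 35.7%, and took the share higher with SAHA to 35.3%, against 49.5%. It turned MCL1 ILMN_1683375 to −0.082 with SAHA and −0.047 with MS-275. Leaving out 1 line gave BCL2 ILMN_1801119 values of −1.04 to 0.14 with SAHA and −0.49 to 0.23 with MS-275, BCL2L1 ILMN_1654118 −0.24 to 0.088 with MS-275, BIRC2 −0.33 to 0.20 and BCL2A1 −0.0022 to 0.27 with MS-275. Without the line block both BCL2L1 probes and MCL1 ILMN_1710028 lost their calls with SAHA against untreated (limma adjusted p = 0.588, 0.389 and 0.491) and against MS-275 (0.637, 0.673 and 0.302), with the same mean changes. In the F test over lines XIAP was lost without background correction (adjusted p = 0.0626), without MS-275 arrays (0.151) and without untreated arrays (0.0593), and BIRC2 without SAHA arrays (0.0611) and without untreated arrays (0.0591), while MCL1 ILMN_1683375 passed without background correction (0.0478) and without the detection filter (0.042). Causes of these shifts were not tested, and only some of these fits hold fewer arrays. Over the alternatives, the SAHA change ran from −1.64 to −1.21 for BCL2L1 ILMN_1654118, from −1.87 to −0.95 for ILMN_1742410 and from 0.66 to 0.88 for MCL1 ILMN_1710028. Dim probes limit what can be said of BCL2A1, XIAP, the beta-record BCL2 probes and, in K562, BCL2 ILMN_1801119.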
